A study of Mus musculus with 24 samples.

Results

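Transcripts bound by a tagged poly(A)-binding protein in Homer1a-expressing cells were compared with those of the whole brain, in mice kept awake for 6 h. The comparison takes 10 of the 24 arrays of the series, chosen by their titles: 6 arrays of pulled-down polyadenylated RNA (pull-down 1, 3, 6, 7, 10 and 12) and 4 arrays of whole-brain total RNA (whole brain 18, 19, 20 and 21). All came from male mice of about 12 weeks that were sleep deprived by gentle handling from light onset and taken at zeitgeber time 6, with each array from another animal by the design text. For the pull-down the brain was perfused with formaldehyde, homogenised, and its RNA bound to anti-FLAG beads, which hold what the FLAG-tagged poly(A)-binding protein has bound. Whole-brain RNA was extracted with a lipid tissue kit, without a mention of tag or beads. The strain, the transgene's genotype in each group and the promoter that drives the tag are not given in the sources used here. Other arrays were used where named. Among them were 6 pull-down and 4 whole-brain arrays of mice left undisturbed until the same clock time. The 4 arrays of supernatants left by the pull-down entered the fit and the quantile normalization of all 24 arrays. By their titles most supernatants came from sleep-deprived mice and the rest from undisturbed mice. They were taken as a single group, so a difference between these mice counts as spread within it.

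Homer1 encodes a scaffold of the postsynaptic density that links metabotropic glutamate receptors to calcium stores and to Shank proteins. Its short form, Homer1a, is an immediate early transcript induced by neuronal activity. It lacks the part that joins Homer proteins to each other, so it uncouples the scaffold, and its rise with time awake is among the known molecular marks of sleep loss in rodent forebrain. In mRNA tagging, messages of chosen cells are recovered through the protein that sits on their poly(A) tails.

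Values are log2 intensities of probe sets, and a difference is pull-down minus whole brain in log2 units, so that 1 unit is a doubling. Each difference is given on 2 scales: as deposited, and after quantile normalization over the 10 arrays, which gives every array the same distribution. The scales differ because pull-down arrays were dimmer over most of their probe sets. Array medians ran from 4.50 to 5.31 in pull-down and from 6.04 to 6.16 in whole brain. The signal of 18S ribosomal RNA, a control without a poly(A) tail, was 8.54 to 12.6 in pull-down and 14.3 to 14.4 in whole brain. The 3′ minus 5′ difference of the Gapdh control, which grows as copies of a message get shorter, was 5.01 ± 0.80 (SD, n = 6) and 2.86 ± 0.10 (n = 4), and the part of this in single results was not tested. Pull-down 1 stood apart: it had the most 18S signal (12.6) and correlated with the mean of whole brain at r = 0.930 over probe sets, against 0.851 to 0.874 for the other 5. Its values are named below where they lie apart. In bulk RNA, fewer cells of a type and less RNA per cell cannot be told apart, nor can the cells of the pull-down be told from its fixation and amplification, which the labels name for immunoprecipitated RNA only.

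Of 45037 probe sets, 3082 (6.84%) were higher in pull-down and 28354 (63%) were lower as deposited (limma, adjusted p under 0.05). After quantile normalization 10256 (22.8%) were higher and 9407 (20.9%) lower. On both scales, 2993 (6.65%) were higher and 9262 (20.6%) were lower. A further 1327 were lower as deposited and higher after quantile normalization, and 0 did the opposite. The median difference of all probe sets was -0.78 as deposited and 0.09 after quantile normalization. Subtracting each array's median instead gave 18559 higher and 5741 lower, and scaling arrays to 1 median and spread gave 17307 and 5757. The count of 1327 depends on single arrays, with 151 without whole brain 20, 219 without whole brain 19, 278 without whole brain 18, 290 without whole brain 21, 673 without pull-down 7, 736 without pull-down 6, 769 without pull-down 3 and 2152 without pull-down 1. It was 4322 with array weights, 2078 without pull-down 1 and 3 and 726 with a filter on dim probe sets. The counts on both scales moved less, to 2546 to 3138 higher and 7795 to 10348 lower without any 1 array. Results below are for transcripts that passed on both scales unless a scale is named, and a gene's direction is that of 1 probe set, with others named where they passed in the opposite direction on both scales. Scaling to equal median and spread changed the sign of some lower ones, among those named Actb, Cacna1e, Gabrb1, Penk, Slc32a1, Malat1 by 1418188_a_at and Mbp by 1433532_a_at, of which Gabrb1 and Malat1 passed as higher.

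Homer1 itself was measured by 6 probe sets, of which 3 were higher, 2 were lower and 1 did not pass. Homer1 (1436387_at) read from 10.74 to 11.56, with a median of 11.04, on the 6 pull-down arrays and 9.49, 9.38, 9.59 and 9.51 on the whole-brain arrays. All 6 pull-down arrays lay above all 4 whole-brain arrays. The difference was 1.60 ± 0.20 (SE, adjusted p = 1.36e-05) as deposited and 1.65 ± 0.16 (adjusted p = 5.52e-06) after quantile normalization, a 3.04-fold and 3.15-fold higher level. Probe sets 1439662_at (1.49 and 1.65) and 1437363_at (1.27 and 1.38) were higher as well, again with no overlap between the groups. By contrast, Homer1 (1425710_a_at) read from 5.80 to 8.27, with a median of 6.29, on the 6 pull-down arrays and 8.69, 8.40, 8.17 and 8.19 on the whole-brain arrays. Its difference was -1.83 ± 0.38 (SE, adjusted p = 0.000821) as deposited and -1.06 ± 0.29 (adjusted p = 0.00947) after quantile normalization. Pull-down 1, at 8.27, reached the whole-brain level here while the other 5 stayed at 5.80 to 6.59. Probe set 1421768_a_at was also lower (-1.57 and -1.17), and 1425671_at did not pass on either scale (-0.07 and 0.34, adjusted p = 0.877 and 0.382). The sources used here do not say which Homer1 transcript, short or long, a given probe set detects.

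**Figure D1:**
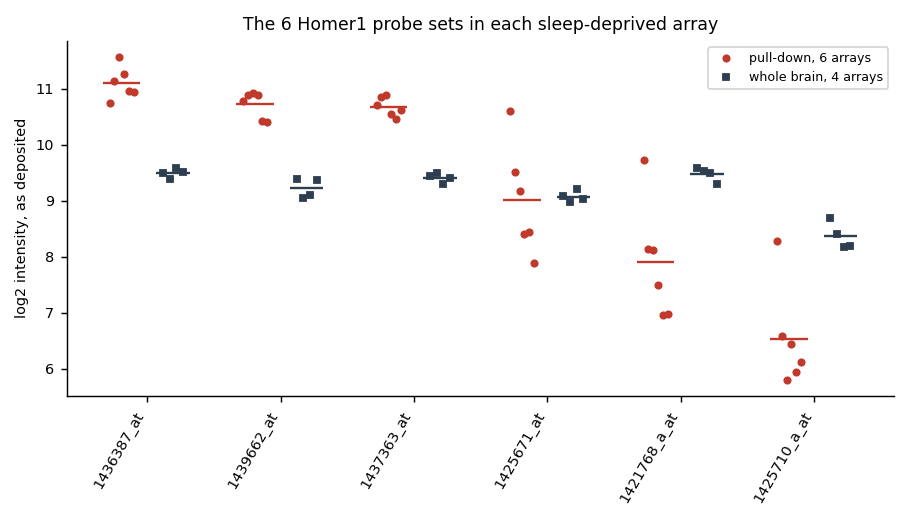
Log2 intensity as deposited (vertical axis) of the 6 Homer1 probe sets (horizontal axis) on each sleep-deprived array. Circles are the 6 pull-down arrays, squares the 4 whole-brain arrays and lines the group means. For 3 probe sets every pull-down array lies above every whole-brain array, and for 1421768_a_at and 1425710_a_at all but 1 pull-down array, pull-down 1, lie below.

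Genes that neuronal activity induces within minutes to hours were the functional list with the highest median apart from the 4 genes the study named, which were chosen on these samples. Of 44 measured members, 15 were higher and 4 lower on both scales, where over all 18193 genes (1 probe set each) 8.43% were higher and 14.5% lower. Homer1, Ptgs2 and Nptx2, which the study named, are also members of this list and count among its 15 higher genes. As deposited, 15 were higher and 14 lower (all genes 8.71% and 57.2%), with a median difference of 0.38 against -0.66 for all genes. After quantile normalization 29 were higher and 4 lower (all genes 29.4% and 14.9%), with a median of 0.81 against 0.20. With the median over all probe sets of a gene in place of its brightest, the list's medians were -0.33 and 0.59. Without the 2 pull-down arrays with the most 18S signal, pull-down 1 and 3, the counts were 16 and 15 as deposited and 31 and 5 after quantile normalization. The groups did not overlap for 13 of the 15 higher genes as deposited, where 5.92% of all probe sets were higher without overlap and 45.8% lower. After quantile normalization they did not overlap for any of the 15 (all probe sets 18.5% and 15.9%). These 15 had already passed as higher, and most probe sets that pass do not overlap, so this adds little. As deposited 2666 probe sets were higher without overlap beside 3082 that passed as higher. After quantile normalization the counts were 8317 and 10256.

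Transcription factors made up the first group. Fos, which pairs with Jun proteins in the AP-1 factor, read from 8.03 to 9.44, with a median of 9.20, on the 6 pull-down arrays and 6.81, 6.84, 6.82 and 6.94 on the whole-brain arrays. Every pull-down array lay above every whole-brain array, with pull-down 1 the lowest at 8.03. The difference was 2.13 ± 0.27 (SE, adjusted p = 1.36e-05) as deposited and 2.93 ± 0.33 (adjusted p = 1.76e-05) after quantile normalization. Nr4a2, an orphan nuclear receptor, read from 10.43 to 11.20, with a median of 11.01, on the 6 pull-down arrays and 8.68, 8.38, 8.80 and 8.87 on the whole-brain arrays. Again no pull-down array reached down to whole brain, and the difference was 2.24 ± 0.21 (SE, adjusted p = 1.47e-06) as deposited and 2.48 ± 0.21 (adjusted p = 2.21e-06) after quantile normalization. By its other probe sets Nr4a2 was lower as deposited only (1433422_at, -0.79 and 0.37, 1447863_s_at, -1.14 and -0.60, and 1450749_a_at, -1.29 and -0.26). Egr2, a zinc finger factor of the Egr family, read from 9.03 to 10.10, with a median of 9.56, on the 6 pull-down arrays and 6.77, 6.90, 7.08 and 7.19 on the whole-brain arrays by probe set 1427682_a_at. The groups lay over 1 unit apart, and the difference was 2.64 ± 0.23 (SE, adjusted p = 8.98e-07) as deposited and 3.34 ± 0.25 (adjusted p = 1.19e-06) after quantile normalization. Its second probe set, 1427683_at, was higher too (2.12 and 2.58). Egr3 (1.17 and 1.52), Egr1 (1.23 and 1.02), Jun (1.05 and 1.34) and Klf10 (1.05 and 1.72), a Krüppel-like factor, completed the group of higher factors. Jun (1417409_at, -1.72 and -1.29) was lower on both scales by another probe set. Egr3 (1421486_at, -1.27 and -0.11) was lower by another probe set as deposited only.

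Secreted proteins, enzymes and signal regulators formed the second. Ptgs2, cyclooxygenase 2, which makes the precursor of prostaglandins, read from 7.18 to 7.80, with a median of 7.51, on the 6 pull-down arrays and 5.93, 5.99, 6.01 and 5.50 on the whole-brain arrays by probe set 1417262_at. The groups were apart, and whole brain 21 was the lowest of all. The difference was 1.63 ± 0.20 (SE, adjusted p = 1.12e-05) as deposited and 2.60 ± 0.14 (adjusted p = 2.18e-07) after quantile normalization. The dimmer probe set 1417263_at gave 0.80 and 1.68, with an adjusted p of 0.0485 as deposited that was lost without any one of 8 of the 10 arrays (up to 0.14). Nptx2, a secreted pentraxin that clusters AMPA receptors, read from 8.69 to 9.60, with a median of 9.21, on the 6 pull-down arrays and 7.63, 7.36, 7.48 and 7.68 on the whole-brain arrays by probe set 1420720_at. All pull-down arrays were higher, with a difference of 1.62 ± 0.21 (SE, adjusted p = 1.87e-05) as deposited and 2.33 ± 0.14 (adjusted p = 3.7e-07) after quantile normalization. Its other probe set, 1449960_at, was near the floor of the arrays and gave -0.59 and 0.17. Gadd45b, a stress and DNA-demethylation factor, read from 7.97 to 8.73, with a median of 8.35, on the 6 pull-down arrays and 7.04, 6.37, 6.22 and 6.15 on the whole-brain arrays. No arrays overlapped, and the difference was 1.88 ± 0.23 (SE, adjusted p = 9.47e-06) as deposited and 2.78 ± 0.23 (adjusted p = 2.07e-06) after quantile normalization. Another Gadd45b probe set, 1450971_at, was lower as deposited only (-0.57 and 0.52).

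The MAP kinase phosphatase Dusp1, which ends kinase signals, read from 10.94 to 11.96, with a median of 11.64, on the 6 pull-down arrays and 10.17, 10.01, 9.86 and 9.85 on the whole-brain arrays. It was higher on every pull-down array, by 1.61 ± 0.22 (SE, adjusted p = 2.54e-05) as deposited and 1.50 ± 0.21 (adjusted p = 0.0001) after quantile normalization. The related phosphatase Dusp6 (1.47 and 2.07) and Rgs2 (1.22 and 1.33), a brake on G-protein signals, were also higher. Vgf, a neuropeptide precursor, passed narrowly as deposited (0.66 and 1.06, adjusted p = 0.0487 and 0.000372), and its deposited call was lost without any one of 7 of the 10 arrays (adjusted p up to 0.10). Rgs2 (1419247_at, -1.57 and -1.27) was lower on both scales by another probe set.

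Members of the same list went the other way. Per1, a clock gene that light and glucocorticoids also induce, read from 4.41 to 6.88, with a median of 4.81, on the 6 pull-down arrays and 7.74, 7.79, 7.60 and 7.67 on the whole-brain arrays. All pull-down arrays were lower, with pull-down 1 nearest to whole brain. The difference was -2.59 ± 0.38 (SE, adjusted p = 5.36e-05) as deposited and -1.64 ± 0.28 (adjusted p = 0.000393) after quantile normalization. Pcsk1, the convertase that cleaves neuropeptide precursors such as Vgf, read from 5.35 to 7.55, with a median of 5.84, on the 6 pull-down arrays and 7.71, 7.84, 7.70 and 7.64 on the whole-brain arrays. Its difference was -1.67 ± 0.35 (SE, adjusted p = 0.000921) as deposited and -0.72 ± 0.25 (adjusted p = 0.0352) after quantile normalization, and the second call was lost without any one of 8 of the 10 arrays (adjusted p up to 0.09). Inhba, a subunit of activins (-1.92 and -1.32), and Tiparp, a poly-ADP-ribose polymerase (-2.30 and -1.29), were lower as well. Arc, which drives internalisation of AMPA receptors, read from 7.45 to 9.17, with a median of 7.73, on the 6 pull-down arrays and 7.30, 7.18, 7.43 and 7.47 on the whole-brain arrays. Pull-down 1 stood alone at 9.17, the other 5 began within the range of whole brain, and only the quantile-normalized difference passed (0.56 ± 0.29 (SE, adjusted p = 0.0941) as deposited and 1.47 ± 0.19 (adjusted p = 4.4e-05) after quantile normalization). The same held for the Bdnf probe set 1422169_a_at (0.43 and 1.48, adjusted p = 0.0826 and 8.38e-06). For the other, 1422168_a_at, only the deposited difference passed (-1.50 and -0.44, adjusted p = 0.000246 and 0.279). Npas4 (0.04 and 0.98), Nr4a1 (-0.38 and 0.69) and Dusp4 (0.43 and 1.45) passed after quantile normalization only, while Egr4 (-0.55 and 0.57) and Sik1 (-0.55 and 0.59) passed on both scales with opposite signs. The call of Nr4a1 and the deposited call of Sik1 were lost without whole brain 21. Egr4 lost its deposited call without pull-down 7 or whole brain 19 or 21, and its quantile-normalized call without whole brain 20.

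**Figure D2:**
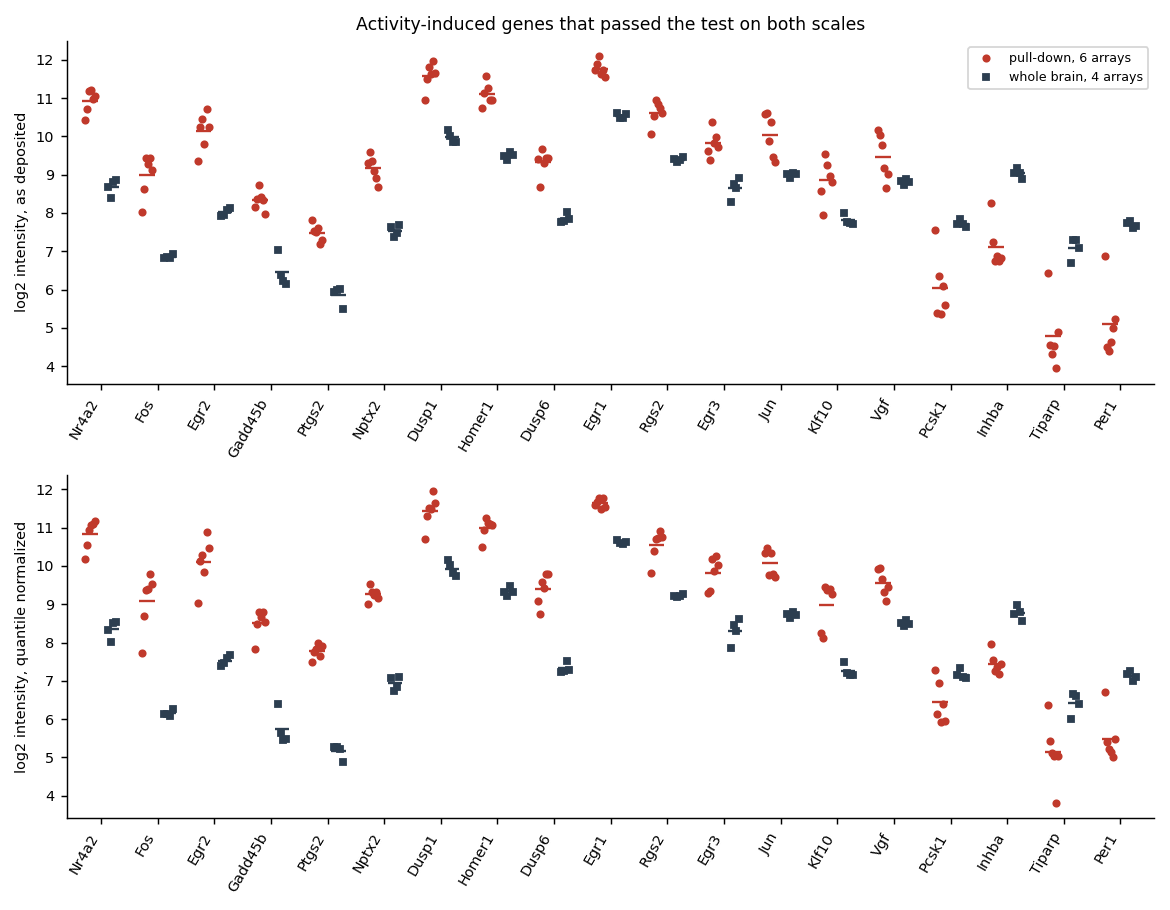
Log2 intensity (vertical axes; as deposited above, quantile normalized below) of the 19 activity-induced genes that passed on both scales (horizontal axis), each by its brightest probe set of the kinds _at and _a_at. Circles are the 6 pull-down arrays, squares the 4 whole-brain arrays and lines group means. The 15 genes from Nr4a2 to Vgf are higher in pull-down and Pcsk1, Inhba, Tiparp and Per1 are lower.

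The promoters of 34 of the 44 genes were in the RefSeq table used here (GRCm38.p6, 250 bases before to 50 after a transcript start), and 3 are shown because genes with the same motif lay on opposite sides of the comparison. The cyclic AMP response element (TGACGTCA, which is its own complement) was found in 5 of the 34 genes (14.7%), against 2.03% of all 27025 genes and 1.79% of all 32851 promoters. Only 10 of the 15 higher genes had a promoter there, and 1 of these 10, Dusp1, held it (10%). Of the 24 other members, 4 did (16.7%). Pcsk1, which holds it too, was lower. The CArG box, the site of serum response factor, was searched by its consensus on both strands. It occurred in 1.81% of all genes, 1.63% of all promoters and in Egr2 and Dusp5 of the list, of which Dusp5, another phosphatase, was lower as deposited and did not pass after quantile normalization (-1.35 and -0.51, adjusted p = 0.00394 and 0.0862). A match is a description of these letters. Capitals mark the cyclic AMP response element in Dusp1, chr17:26508423-26508722 (- strand), and in Pcsk1, chr13:75089607-75089906 (+ strand), and the CArG box in Egr2, chr10:67537316-67537615 (+ strand), shown for 1 of its 4 listed starts.
Dusp1: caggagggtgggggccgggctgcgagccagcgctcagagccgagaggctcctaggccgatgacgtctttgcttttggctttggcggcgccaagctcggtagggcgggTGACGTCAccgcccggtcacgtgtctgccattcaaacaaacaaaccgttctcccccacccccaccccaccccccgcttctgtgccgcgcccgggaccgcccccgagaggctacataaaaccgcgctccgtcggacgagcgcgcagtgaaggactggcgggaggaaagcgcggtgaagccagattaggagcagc
Pcsk1: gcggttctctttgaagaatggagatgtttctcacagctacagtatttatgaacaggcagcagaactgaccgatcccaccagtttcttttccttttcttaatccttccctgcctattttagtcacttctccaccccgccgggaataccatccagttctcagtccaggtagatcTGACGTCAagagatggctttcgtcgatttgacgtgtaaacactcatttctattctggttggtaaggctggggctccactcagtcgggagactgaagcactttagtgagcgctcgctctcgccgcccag
Egr2: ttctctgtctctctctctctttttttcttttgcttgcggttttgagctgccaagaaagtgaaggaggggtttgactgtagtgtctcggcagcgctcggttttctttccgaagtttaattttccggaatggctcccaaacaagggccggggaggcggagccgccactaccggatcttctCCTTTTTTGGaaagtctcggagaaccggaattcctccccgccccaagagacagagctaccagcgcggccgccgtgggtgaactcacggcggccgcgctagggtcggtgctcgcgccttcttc

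The transcripts most concentrated in the pull-down were of mixed kinds. Fmn1, a formin that nucleates actin filaments, led with values from 8.81 to 9.79, with a median of 9.63, on the 6 pull-down arrays and 5.82, 4.41, 4.32 and 5.33 on the whole-brain arrays. The groups were about 3 units apart at their nearest, and the difference was 4.51 ± 0.30 (SE, adjusted p = 1.66e-07) as deposited and 5.12 ± 0.34 (adjusted p = 5.64e-07) after quantile normalization, a 22.8-fold and 34.9-fold higher level. Another Fmn1 probe set, 1427671_a_at, was lower as deposited only (-1.25 and -0.07). Pus7l, a pseudouridine synthase homologue, read from 7.95 to 9.32, with a median of 8.93, on the 6 pull-down arrays and 5.14, 5.03, 4.89 and 5.42 on the whole-brain arrays. It did not overlap either, and differed by 3.70 ± 0.25 (SE, adjusted p = 1.86e-07) as deposited and 4.43 ± 0.31 (adjusted p = 7.23e-07) after quantile normalization. Another Pus7l probe set, 1460447_at, was lower as deposited only (-0.61 and 0.40). Rps25 (1430978_at), of a ribosomal protein gene, read from 8.46 to 10.81, with a median of 10.48, on the 6 pull-down arrays and 6.57, 6.08, 6.92 and 6.64 on the whole-brain arrays. Pull-down values were widely spread but all above whole brain, by 3.55 ± 0.40 (SE, adjusted p = 5.78e-06) as deposited and 4.21 ± 0.44 (adjusted p = 1e-05) after quantile normalization. Hspa1b (1452318_a_at), an inducible Hsp70 chaperone, read from 9.20 to 10.26, with a median of 10.08, on the 6 pull-down arrays and 6.48, 6.98, 6.37 and 6.66 on the whole-brain arrays. It was higher on all pull-down arrays by 3.32 ± 0.24 (SE, adjusted p = 2.55e-07) as deposited and 4.02 ± 0.26 (adjusted p = 5.13e-07) after quantile normalization.

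Among the 15 genes with the largest smaller difference were also the mitochondrial ribosomal protein Mrpl44 (3.46 and 3.59), the transcription factors Cebpb (3.02 and 3.66), Hivep3 (3.00 and 3.45) and Pou3f1 (2.71 and 3.40), and the RNA-binding protein Sarnp (2.92 and 3.45). Stum (2.94 and 3.02), the mitochondrial Fastkd2 (2.70 and 3.38), the deoxycytidine kinase Dck (2.68 and 3.30) and Egr2, above, stood among them too. Afp, alpha-fetoprotein (3.32 and 3.94), and Aplnr, the apelin receptor (2.78 and 3.64), are known from tissues other than adult neurons, and are given by 1 probe set each. Another probe set of Afp, 1416646_at, gave -0.69 and 0.32 (adjusted p = 0.0184 and 0.098), lower as deposited only. The same held for Aplnr (1423037_at, -0.91 and 0.28) and Mrpl44 (1426651_at, -0.91 and 0.0092, and 1430990_s_at, -0.77 and 0.20). It also held for Cebpb (1427844_a_at, -1.04 and 0.13), Dck (1428838_a_at, -0.73 and 0.30) and Fastkd2 (1443246_at, -1.73 and -0.59). Pou3f1 (1422068_at, -0.71 and 0.39) was lower as deposited and higher after quantile normalization. Among probe sets marked _s_at or _x_at, whose probes can pick up more than 1 gene, the highest were Lrrc6 (3.72 and 4.41), Dkc1 (3.55 and 3.73) and Eras (3.21 and 3.99). Hivep3 (1439660_at, -1.80 and -0.63) and Sarnp (1456626_a_at, -2.04 and -1.47) were lower on both scales by other probe sets.

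Position within the array does not depend on either scale. For 9 probe sets every pull-down array placed the transcript above the 75th percentile and every whole-brain array below the 50th. They included Fmn1 (median percentile 94.6 in pull-down and 27 in whole brain), Pus7l (92.7 and 30.9), Ptgs2 (83.5 and 47.3) and Kansl1l, a subunit of a chromatin complex (89.4 and 48.8). The calcium-binding Necab1 (78.9 and 35.9) and the adhesion protein Cntnap5a (83.2 and 40.3) completed the 6 named by the rule for names, and the other 3 were of the kind _x_at (Eif2a and Eras) or carry a clone name. In the opposite direction 21 probe sets passed, 16 of them without exactly 1 gene symbol. They were led by Hbb-b2, a globin (28.9 and 94.6), and held Nktr (16.6 and 82.3), the noncoding Kcnq1ot1 (29.8 and 85.3), Zfp280d (31.7 and 79.6) and Trio (41.4 and 81.3). At the 90th percentile in place of the 75th, 0 and 2 passed. No background level was used here, so a low place in the array is the nearest measure of absence. Kansl1l (1440848_at, -1.43 and -0.48, and 1443584_at, -2.01 and -1.23) was lower on both scales by other probe sets. Zfp280d (1426556_at, 1.60 and 2.50) was higher on both scales by another probe set.

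**Figure D3:**
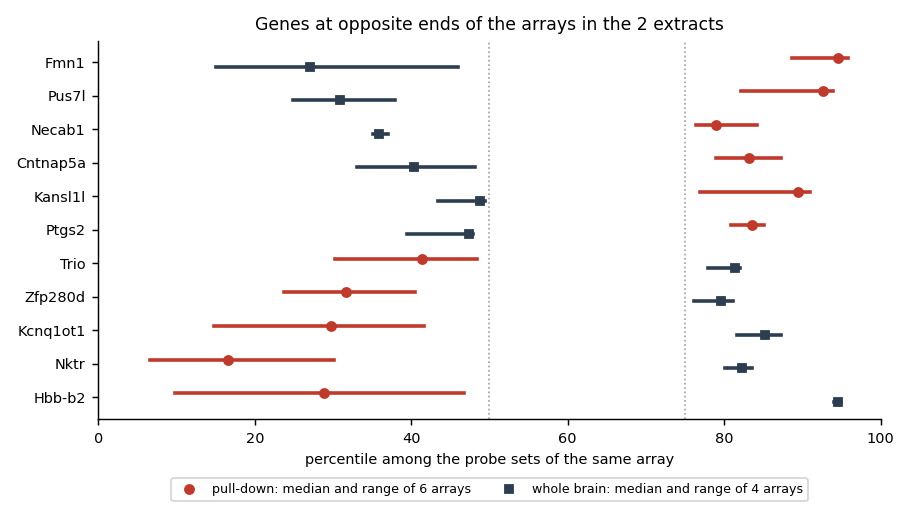
Percentile of a probe set among all probe sets of its own array (horizontal axis) for the named genes that lie at opposite ends of the 2 extracts. Symbols are medians and bars ranges over 6 pull-down arrays (circles) or 4 whole-brain arrays (squares), and dotted lines mark the 50th and 75th percentiles. Ptgs2 runs from 80.8 to 85.1 in pull-down and from 39.4 to 47.9 in whole brain, and Hbb-b2 from 9.80 to 46.7 and from 94.0 to 95.0.

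Transcripts of glia were among the lowest of the lists. Astrocyte markers gave 0 higher and 17 lower of 18 as deposited, and 0 higher and 17 lower after quantile normalization, with median differences of -2.01 and -1.38, where 57.2% and 14.9% of all genes were lower. Their mean level was 7.02 to 8.14 in pull-down and 9.33 to 9.39 in whole brain, and pull-down 1 lay nearest to whole brain. Oligodendrocyte markers gave 0 higher and 14 lower of 14 as deposited, and 0 higher and 11 lower after quantile normalization, with medians of -1.83 and -1.39 and mean levels of 6.80 to 7.61 in pull-down and 8.98 to 9.12 in whole brain. Without pull-down 10, 1 oligodendrocyte marker was higher after quantile normalization. Both lists stayed lower after subtracting each array's median (-0.83 and -0.65, against 0.52 for all genes). Without pull-down 1 and 3, 17 of 18 astrocyte and 14 of 14 oligodendrocyte markers were lower as deposited.

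Mbp, myelin basic protein, read from 6.19 to 8.55, with a median of 6.28, on the 6 pull-down arrays and 11.80, 12.00, 12.06 and 11.77 on the whole-brain arrays by probe set 1419646_a_at. Pull-down 1, at 8.55, was apart from the other 5 (6.19 to 6.48), and all 6 were below whole brain. The difference was -5.24 ± 0.39 (SE, adjusted p = 2.97e-07) as deposited and -5.09 ± 0.28 (adjusted p = 2.18e-07) after quantile normalization. The myelin enzyme Cnp (-4.23 and -3.76), the myelin protein Mobp (-2.92 and -3.07) and the connexin Gjc3 (-2.81 and -1.77) were lower too. Mlc1, an astrocyte membrane protein, read from 3.64 to 6.64, with a median of 4.87, on the 6 pull-down arrays and 9.13, 9.13, 9.07 and 9.23 on the whole-brain arrays. The groups did not overlap, and the difference was -4.11 ± 0.41 (SE, adjusted p = 2.23e-06) as deposited and -3.48 ± 0.29 (adjusted p = 2.33e-06) after quantile normalization. Gfap, the astrocyte intermediate filament, read from 4.08 to 6.76, with a median of 4.70, on the 6 pull-down arrays and 8.42, 8.75, 8.73 and 8.71 on the whole-brain arrays. It was lower on every pull-down array, with a difference of -3.65 ± 0.41 (SE, adjusted p = 5.65e-06) as deposited and -3.01 ± 0.38 (adjusted p = 4.18e-05) after quantile normalization. Aldoc, an aldolase of astrocytes, gave -3.17 and -3.12. Precursors of oligodendrocytes moved less: 0 higher and 8 lower of 10 as deposited, and 4 higher and 2 lower after quantile normalization. Their medians were -0.95 and 0.22, against -0.66 and 0.20 for all genes. The 2 that were lower on both scales were Olig1 (-1.97 and -1.33) and Cspg4 (-1.96 and -0.80). Gfap (1440142_s_at, 1.60 and 1.89) was higher on both scales by another probe set.

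Vessel, immune, meningeal and blood transcripts were lower as well. Microglial markers gave 0 higher and 12 lower of 16 as deposited, and 2 higher and 7 lower after quantile normalization (medians -1.58 and -0.48), with Aif1 (-3.01 and -1.98), the complement gene C1qb (-2.52 and -1.61) and the protease Ctss (-2.15 and -1.91) lowest. Markers of endothelial cells and pericytes gave 0 higher and 16 lower of 18 as deposited, and 1 higher and 10 lower after quantile normalization (medians -1.76 and -0.71). The single higher call after quantile normalization was lost without any one of pull-down 6, pull-down 7 and whole brain 18, 19 and 20. Bsg (-3.65 and -3.27), the thyroid hormone transporter Slco1c1 (-3.36 and -2.53) and Vtn of pericytes (-3.12 and -2.33) were the lowest. Meningeal and fibroblast markers gave 0 higher and 11 lower of 12 as deposited, and 0 higher and 6 lower after quantile normalization (medians -1.74 and -0.57), with 1 higher after quantile normalization without pull-down 3 or 7. Igf2 (-2.64 and -2.14) and the collagen Col1a2 (-2.68 and -1.73) were among the lowest. Choroid plexus markers gave 0 higher and 10 lower of 11 as deposited, and 1 higher and 2 lower after quantile normalization, led by Ttr, transthyretin (-3.93 and -3.86). Their medians were -0.92 and 0.04, against -0.66 and 0.20 for all genes, of which 57.2% and 14.9% were lower. After quantile normalization 4 of these 11 were higher without pull-down 1, 2 without whole brain 18 or 19, and 1 was lower without pull-down 7 or whole brain 18, 19 or 20.

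Ptgds, a prostaglandin D synthase found in meninges and in oligodendrocytes, read from 4.84 to 6.90, with a median of 5.29, on the 6 pull-down arrays and 10.74, 10.96, 10.74 and 10.90 on the whole-brain arrays by probe set 1423860_at. Pull-down 1 was the highest of the pull-down arrays at 6.90, and all were far below whole brain. The difference was -5.35 ± 0.32 (SE, adjusted p = 8.5e-08) as deposited and -5.09 ± 0.28 (adjusted p = 2.27e-07) after quantile normalization. Hbb-b2, an adult beta globin, read from 3.53 to 4.57, with a median of 4.04, on the 6 pull-down arrays and 9.65, 9.70, 9.83 and 9.85 on the whole-brain arrays. It had the largest difference of all named genes, -5.70 ± 0.22 (SE, adjusted p = 1.56e-09) as deposited and -5.23 ± 0.29 (adjusted p = 2.18e-07) after quantile normalization, or 52-fold and 37.4-fold lower. The alpha globin Hba-a2 (-4.17 and -3.41) and the red-cell heme enzyme Alas2 (-2.48 and -1.40) were lower too. The pull-down brains were perfused with saline before removal and no perfusion is named for whole-brain RNA, so perfusion and cell type cannot be told apart for blood. Of 7 blood markers, all 7 were lower as deposited, and 1 was higher and 3 lower after quantile normalization. The higher one became 0 without pull-down 7 or whole brain 18 or 19, and the 7 became 5 without pull-down 3 or 6 or whole brain 19, 20 or 21. Gh, the growth hormone of the pituitary, read from 3.64 to 10.12, with a median of 4.18, on the 6 pull-down arrays and 13.07, 6.93, 10.01 and 13.26 on the whole-brain arrays. Its whole-brain arrays spanned over 6 units and the groups overlapped, so that the difference (-5.39 and -4.88, adjusted p = 0.00231 and 0.015) rests on whole brain 18 and 21, and its quantile-normalized call was lost without either.

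**Figure D4:**
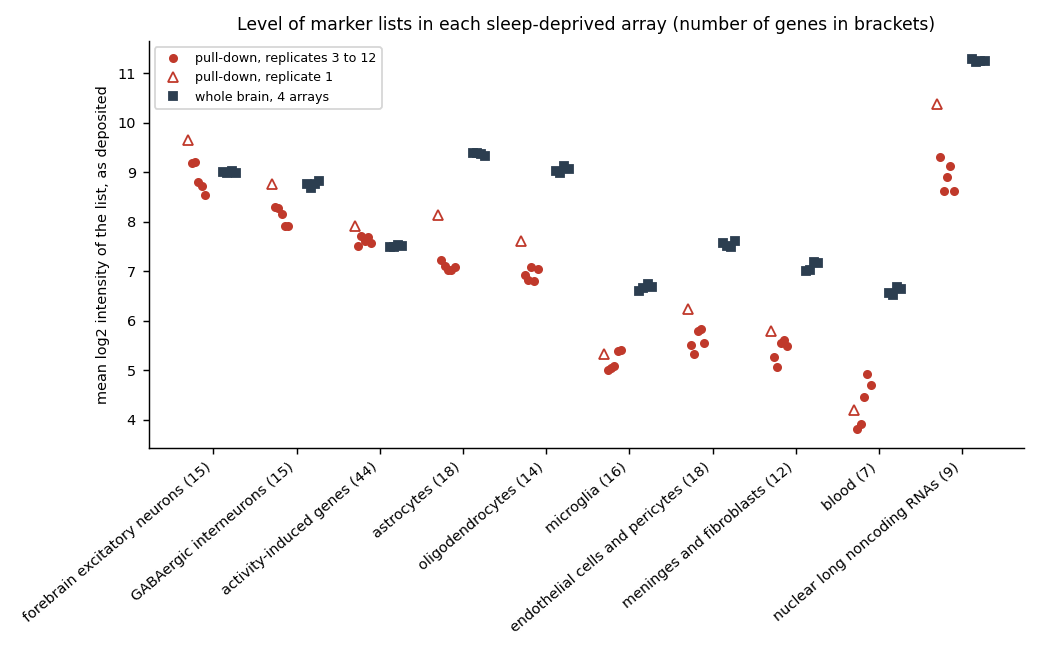
Mean log2 intensity as deposited over the genes of a list (vertical axis) on each sleep-deprived array, by list (horizontal axis, number of genes in brackets). Circles are pull-down arrays, the open triangle pull-down 1 and squares whole-brain arrays. Astrocyte markers lie at 7.02 to 8.14 in pull-down and 9.33 to 9.39 in whole brain, and forebrain excitatory markers at 8.54 to 9.65 and 8.97 to 9.03.

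Long noncoding RNAs that stay in the nucleus were as low as glial markers: 0 higher and 9 lower of 9 as deposited, and 0 higher and 8 lower after quantile normalization, with medians of -1.90 and -1.54. Pull-down 1 lay nearest to whole brain (mean level 10.37, the other 5 from 8.61 to 9.31, whole brain 11.23 to 11.28). Malat1, a nuclear speckle RNA, read from 7.55 to 11.37, with a median of 8.43, on the 6 pull-down arrays and 13.63, 13.64, 13.55 and 13.47 on the whole-brain arrays by probe set 1427285_s_at. Pull-down 1 was again apart at 11.37, and the difference was -4.84 ± 0.55 (SE, adjusted p = 6.03e-06) as deposited and -4.81 ± 0.48 (adjusted p = 7.61e-06) after quantile normalization. Its probe set 1418188_a_at differed far less, with values from 13.18 to 13.60, with a median of 13.40, on the 6 pull-down arrays and 13.93, 14.01, 13.92 and 13.83 on the whole-brain arrays. All pull-down arrays were a little lower, with a difference of -0.55 ± 0.18 (SE, adjusted p = 0.0134) as deposited and -0.76 ± 0.15 (adjusted p = 0.00135) after quantile normalization, and after subtracting array medians this turned to 0.62. The imprinted Rian (-4.59 and -4.04) and Kcnq1ot1 (-3.37 and -2.53) and the neuronal Miat (-2.17 and -2.30) were lower. Scaling arrays to equal median and spread moved the list's median to 0.10. That scaling gave 17307 probe sets higher and 5757 lower, and the list was not compared with all genes under it.

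Other transcripts at the low end were, apart from Glul, not members of the glial lists. Kirrel3 (-5.16 and -4.64) and Ncam1 (-4.45 and -3.92), adhesion proteins of neurons, the neurotrophin receptor partner Kidins220 (-4.60 and -4.12), the RNA-binding Hnrnpab (-4.46 and -4.49), the splicing factor Sfswap (-4.63 and -4.14), Septin11 (-4.52 and -4.01) and the ubiquitin enzyme Ube2b (-4.52 and -3.94) were among the 15 largest. So were the lipid desaturase Scd2 (-4.39 and -4.01), the matrix protein Sparc (-4.12 and -4.00), Selenow (-4.36 and -4.29) and Glul. Glul, the glutamine synthetase of astrocytes, was lower by 1 probe set and not by its neighbour. Probe set 1426235_a_at read from 4.92 to 8.18, with a median of 5.46, on the 6 pull-down arrays and 10.44, 10.56, 10.48 and 10.27 on the whole-brain arrays. The groups were over 2 units apart, and the difference was -4.48 ± 0.48 (SE, adjusted p = 4.03e-06) as deposited and -4.22 ± 0.41 (adjusted p = 6.61e-06) after quantile normalization. Probe set 1426236_a_at read from 12.91 to 13.34, with a median of 13.05, on the 6 pull-down arrays and 13.19, 13.26, 13.19 and 13.27 on the whole-brain arrays. The groups overlapped there, and only the quantile-normalized difference passed (-0.15 ± 0.18 (SE, adjusted p = 0.463) as deposited and -0.47 ± 0.12 (adjusted p = 0.00799) after quantile normalization). It turned to 1.03 after subtracting array medians. Hnrnpab (1455855_x_at, 1.08 and 1.22) and Septin11 (1460626_at, 0.61 and 0.46) were higher on both scales by other probe sets.

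Markers of neurons were kept to different degrees. Of all genes, 8.71% were higher and 57.2% lower as deposited, and 29.4% and 14.9% after quantile normalization, with medians of -0.66 and 0.20. Forebrain excitatory markers gave 4 higher and 3 lower of 15 as deposited, and 7 higher and 1 lower after quantile normalization, with medians of 0.08 and 0.42. Their mean level was 8.54 to 9.65 in pull-down and 8.97 to 9.03 in whole brain, so that the groups overlapped. Without pull-down 1, 5 were lower as deposited and 3 after quantile normalization, and without whole brain 20, 1 was lower as deposited. The deposited median turned to -0.078 without pull-down 1 and was at most 0.186 without any other array. With the median over all probe sets of a gene the medians were -0.84 and 0.04. Neurod6, a factor of cortical pyramidal cells, read from 8.44 to 9.55, with a median of 9.22, on the 6 pull-down arrays and 7.20, 7.16, 7.22 and 7.34 on the whole-brain arrays. All pull-down arrays were higher, by 1.86 ± 0.23 (SE, adjusted p = 1.05e-05) as deposited and 2.60 ± 0.27 (adjusted p = 9.95e-06) after quantile normalization. Cux2, of upper cortical layers, was higher too (1.09 and 1.19). Slc17a7, the vesicular glutamate transporter of cortex, read from 5.24 to 8.59, with a median of 5.52, on the 6 pull-down arrays and 7.71, 7.44, 7.73 and 7.05 on the whole-brain arrays. Pull-down 1 at 8.59 lay above whole brain, the others below, and only the deposited difference passed (-1.49 ± 0.52 (SE, adjusted p = 0.0195) as deposited and -0.53 ± 0.43 (adjusted p = 0.348) after quantile normalization), a call lost without whole brain 20 (adjusted p = 0.051).

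Interneuron markers gave 3 higher and 6 lower of 15 as deposited, and 5 higher and 5 lower after quantile normalization, with medians of -0.34 and 0.30. The 3 higher as deposited became 1 without pull-down 7 or without whole brain 18, 19 or 20. Gad1, which makes GABA, read from 10.999 to 11.23, with a median of 11.10, on the 6 pull-down arrays and 10.32, 10.24, 10.15 and 10.39 on the whole-brain arrays. It was higher on every pull-down array by 0.83 ± 0.17 (SE, adjusted p = 0.000758) as deposited and 0.73 ± 0.12 (adjusted p = 0.000355) after quantile normalization. Pvalb, the calcium buffer of fast-spiking cells, read from 8.35 to 10.55, with a median of 8.54, on the 6 pull-down arrays and 11.83, 11.68, 11.73 and 11.80 on the whole-brain arrays. It was lower on all, with pull-down 1 nearest to whole brain at 10.55, and the difference was -2.92 ± 0.36 (SE, adjusted p = 1.18e-05) as deposited and -2.95 ± 0.28 (adjusted p = 5.84e-06) after quantile normalization. Calb2 (-2.49 and -1.82) and the vesicular GABA transporter Slc32a1 (-1.32 and -1.20) were lower. Markers of striatal projection neurons gave 2 higher and 8 lower of 12 as deposited (16.7% and 66.7%). After quantile normalization 2 were higher and 2 lower (16.7% each), where the share lower was near that of all genes. They ran from the phosphodiesterase Pde10a (1.75 and 2.45) and the peptide gene Tac1 (0.58 and 0.74) to Penk (-1.61 and -1.55) and Ppp1r1b, which encodes DARPP-32 (-3.04 and -2.16). Gad1 (1416562_at, -3.02 and -2.44) and Pde10a (1419389_at, -1.97 and -1.17, and 1458499_at, -2.08 and -1.50) were lower on both scales by other probe sets.

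Deeper regions differed among their own markers as well. Over all genes 8.71% were higher and 57.2% lower as deposited, and 29.4% and 14.9% after quantile normalization. Thalamic markers gave 1 higher and 8 lower of 12 as deposited, and 1 higher and 4 lower after quantile normalization, with Slc17a6, the subcortical glutamate transporter (-2.61 and -1.96), and Rora (-2.58 and -2.24) lower. After quantile normalization 3 were higher without pull-down 1 and 2 without pull-down 6. Cerebellar markers gave 3 higher and 3 lower of 10 as deposited, and 2 higher and 3 lower after quantile normalization. The granule cell genes Gabra6 (0.89 and 1.46) and Neurod1 (0.89 and 1.33) were higher, and Pcp2 of Purkinje cells (-1.84 and -1.12) and Zic2 (-1.86 and -1.18) lower. Hypothalamic markers gave 1 higher and 9 lower of 12 as deposited (8.33% and 75.0%). After quantile normalization 3 were higher and 1 lower (25.0% and 8.33%), both shares below those of all genes. Crh, corticotropin-releasing hormone, which cortical interneurons also make, was the highest (2.34 and 2.61), and Pomc was lower (-2.73 and -1.84), with a call after quantile normalization that was lost without pull-down 6 or whole brain 18 or 21. Monoamine and cholinergic markers gave 0 higher and 10 lower of 11 as deposited, and 2 higher and 3 lower after quantile normalization. The 3 lower after quantile normalization, which became 1 without pull-down 7 or 10 or whole brain 19, 20 or 21, included Slc5a7, the choline transporter (-1.57 and -0.62), and Th, tyrosine hydroxylase (-1.65 and -0.56), whose quantile-normalized call was lost without any one of 8 arrays. Gabra6 (1451706_a_at, -2.65 and -1.76) was lower on both scales by another probe set.

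Pan-neuronal transcripts gave 2 higher and 8 lower of 17 as deposited (11.8% and 47.1%, all genes 8.71% and 57.2%). After quantile normalization 2 were higher and 9 lower (11.8% and 52.9%, all genes 29.4% and 14.9%). The list's median lay above that of all genes as deposited (-0.29 against -0.66) and below it after quantile normalization (-0.46 against 0.20). With the median over all probe sets of a gene it lay below on both scales (-1.82 and -1.19, against -0.70 and 0.16). Rbfox3, the antigen NeuN (1.43 and 1.47), and the RNA-binding Elavl4 (1.29 and 1.58) were higher. Uchl1 (-3.78 and -3.45), the tubulin Tubb3 (-2.60 and -2.63) and the neuronal enolase Eno2 (-2.21 and -2.39) were lower. The mean level of the list was 9.49 to 10.96 in pull-down and 10.82 to 10.85 in whole brain, with pull-down 1 the highest of all. Set against the label of Homer1a-expressing cells, Homer1 was higher by 3 of 6 probe sets and neuronal markers lay on both sides. Rbfox3 (1427286_at, -2.64 and -2.09, and 1456149_at, -2.29 and -1.40) was lower on both scales by other probe sets.

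Genes of the synapse divided within each family. For these and the channel, release and dendrite lists below, all genes gave 8.71% higher and 57.2% lower as deposited. After quantile normalization all genes gave 29.4% and 14.9%. The Homer family and its partners gave 2 higher and 7 lower of 11 as deposited, and 3 higher and 5 lower after quantile normalization. As deposited the lower count was 4 without whole brain 20 or 21, and after quantile normalization it was 2 or 3 without any 1 of 7 arrays. Homer2, the long-form relative, was higher (0.75 and 1.32), while the scaffolds Shank3 (-2.65 and -2.02) and Dlg4, PSD-95 (-2.35 and -1.75), were lower. Jph3, a junctophilin that ties the plasma membrane to calcium stores and one of the study's named genes, was higher by probe set 1443724_at (0.87 and 1.83). By 1418161_at it was lower as deposited only (-1.16 and -0.38, adjusted p = 0.028 and 0.367), and that call was lost without any one of 7 arrays. Homer2 (1424367_a_at, -2.76 and -1.998, and 1436110_at, -2.95 and -2.09) was lower on both scales by other probe sets.

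Glutamate receptor subunits gave 2 higher and 10 lower of 14 as deposited, and 3 higher and 6 lower after quantile normalization. Grik3, a kainate receptor subunit, read from 9.74 to 10.60, with a median of 10.35, on the 6 pull-down arrays and 7.71, 7.65, 7.62 and 8.31 on the whole-brain arrays. All pull-down arrays were higher, whole brain 21 was apart from the other whole-brain arrays, and the difference was 2.47 ± 0.22 (SE, adjusted p = 1.11e-06) as deposited and 2.98 ± 0.24 (adjusted p = 1.82e-06) after quantile normalization. Gria1, an AMPA receptor subunit, read from 5.96 to 9.69, with a median of 7.11, on the 6 pull-down arrays and 10.73, 10.72, 10.78 and 10.62 on the whole-brain arrays. All pull-down arrays were lower, with a difference of -3.29 ± 0.51 (SE, adjusted p = 7.79e-05) as deposited and -3.12 ± 0.42 (adjusted p = 7.54e-05) after quantile normalization. Its partner subunit Gria2 was higher (1.52 and 1.32). The NMDA receptor subunits Grin2a (-2.83 and -1.81) and Grin2c (-2.90 and -1.99) were lower. Of GABA-A receptor subunits, 5 of 10 were higher on both scales and 3 (as deposited) or 2 (quantile normalized, 1 without any one of 8 arrays) lower, with medians of 0.22 and 0.70. The deposited median was 0.11 without pull-down 1. Gabra5 (1.62 and 2.26), Gabra2 (1.36 and 1.66) and Gabra4 (0.96 and 1.51) led, and Gabrd, of extrasynaptic receptors (-3.16 and -2.62), was the lowest, ahead of Gabrb1 (-0.65 and -0.43), which lost its call on both scales without any one of 8 arrays. The median over all probe sets of a gene brought the medians to -0.59 and -0.11. Gria2 (1421970_a_at, -1.80 and -1.92, and 1453098_at, -2.34 and -2.28) was lower on both scales by other probe sets.

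Potassium channels gave 6 higher and 7 lower of 15 as deposited, and 5 higher and 3 lower after quantile normalization (5 lower without pull-down 1 after quantile normalization). The M-current gene Kcnq5 (1.84 and 2.29), Kcnc2 of fast-spiking cells (1.17 and 1.41) and the A-type Kcna4 (0.94 and 1.18) were higher, and the calcium-activated Kcnma1 was lower (-1.89 and -1.40). Calcium channels gave 3 higher and 10 lower of 13 as deposited, and 3 higher and 5 lower after quantile normalization. The presynaptic P/Q-type Cacna1a (1.12 and 1.45), N-type Cacna1b (1.18 and 0.97) and auxiliary Cacna2d1 (1.08 and 1.58) were higher and the R-type Cacna1e was lower (-1.22 and -1.27). Genes of vesicles and release gave 3 higher and 10 lower of 21 as deposited, and 3 higher and 8 lower after quantile normalization. Complexin Cplx1 (1.01 and 0.67), Napb (0.83 and 0.55) and the active zone protein Pclo (0.68 and 0.94) were higher. The vesicle proteins Syp (-3.22 and -3.29) and Sv2a (-3.26 and -3.00) were lower. Kcnq5 (1441071_at, -3.88 and -3.10), Cacna1a (1430408_at, -3.02 and -2.10, and 1444455_at, -2.58 and -1.59), Cacna1b (1439612_at, -2.65 and -1.72), Cacna2d1 (1441608_at, -2.59 and -1.48, and 1449999_a_at, -2.27 and -1.86), Cplx1 (1417747_at, -2.14 and -1.27), Napb (1423173_at, -1.81 and -1.61, and 1450888_at, -1.52 and -1.18) and Pclo (1452423_at, -2.20 and -1.24) were lower on both scales by other probe sets.

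Messages known to enter dendrites gave 3 higher and 10 lower of 16 as deposited, and 5 higher and 7 lower after quantile normalization. Fmr1, whose protein binds such messages, was higher (1.32 and 1.53). Actb, beta actin, was lower (-1.66 and -1.90) and turned to 0.41 when arrays were scaled to equal median and spread. Fmr1 (1426086_a_at, -2.23 and -1.64, and 1452550_a_at, -2.34 and -1.32) was lower on both scales by other probe sets.

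Housekeeping families held members at both ends. Where 57.2% of all genes were lower as deposited, so were 63.0% of cytosolic ribosomal proteins, 62.5% of mitochondrial ones and 47.8% of genes of oxidative phosphorylation. After quantile normalization the shares were 14.9% of all genes and 70.4%, 31.2% and 45.7%. Cytosolic ribosomal proteins gave 2 higher and 17 lower of 27 as deposited, and 4 higher and 19 lower after quantile normalization, from Rps25, above, and Rpl14 (0.96 and 1.80) down to Rpl8 (-3.22 and -2.81), Rpl7 (-2.59 and -2.17) and Rplp2 (-2.18 and -2.17). Mitochondrial ribosomal proteins gave 2 higher and 20 lower of 32 as deposited, and 10 higher and 10 lower after quantile normalization, with Mrpl39 (2.01 and 1.72) high and Mrpl15 (-2.83 and -1.91) low. Genes of oxidative phosphorylation gave 8 higher and 22 lower of 46 as deposited, and 7 higher and 21 lower after quantile normalization. Complex I subunits lay at both ends, with Ndufs7 (1.86 and 1.65) and Ndufv2 (1.17 and 0.97) higher and Ndufa9 (-3.06 and -2.71) lower. Of cytochrome oxidase, Cox5a was higher (1.70 and 1.40) and Cox4i1 lower (-2.72 and -2.65), and the ATP synthase subunit Atp5b was the lowest (-3.44 and -3.34). Ndufs7 (1451312_at, -1.15 and -0.55), Ndufv2 (1428179_at, -1.47 and -1.07) and Cox5a (1448153_at, -1.02 and -1.13) were lower on both scales by other probe sets.

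Proteasome subunits gave 6 higher and 19 lower of 28 as deposited, and 7 higher and 17 lower after quantile normalization, with medians of -1.63 and -0.93 and -0.45 after subtracting array medians. Psmd11 (1.91 and 2.73), Psma5 (1.68 and 1.86) and Psmb3 (1.85 and 1.79) were higher, and Psmb4 (-3.40 and -2.89) and Psmc1 (-2.62 and -2.53) lower. Glycolysis gave 2 higher and 11 lower of 17 as deposited, and 2 higher and 11 lower after quantile normalization (1 higher as deposited without whole brain 18, 19 or 20). The lactate dehydrogenase Ldhb was higher (1.19 and 0.82), the phosphofructokinase Pfkl lower (-3.04 and -2.25), and Aldoa, which an _x_at probe set measures, was among the lowest of its kind (-4.84 and -4.78). Initiation factors of translation gave 3 higher and 15 lower of 26 as deposited, and 4 higher and 11 lower after quantile normalization, with the cap-binding Eif4e higher (0.98 and 1.17) and Eif3c lower (-1.81 and -1.85). Aminoacyl-tRNA synthetases gave 2 higher and 14 lower of 19 as deposited, and 2 higher and 9 lower after quantile normalization (5 lower without whole brain 21 after quantile normalization). Hars (2.08 and 1.92) and Iars (1.57 and 1.78) were higher, Aars (-3.15 and -2.51) and Sars (-2.91 and -2.49) lower. Psmd11 (1429370_a_at, -1.72 and -0.91, and 1456104_at, -2.79 and -1.77), Psmb3 (1417052_at, -1.87 and -0.75), Ldhb (1416183_a_at, -1.40 and -1.69, and 1455235_x_at, -1.12 and -1.44) and Eif4e (1450908_at, -1.66 and -1.08) were lower on both scales by other probe sets. Psmb4 (1438984_x_at, 0.54 and 0.45) was higher on both scales by another probe set.

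**Figure D5:**
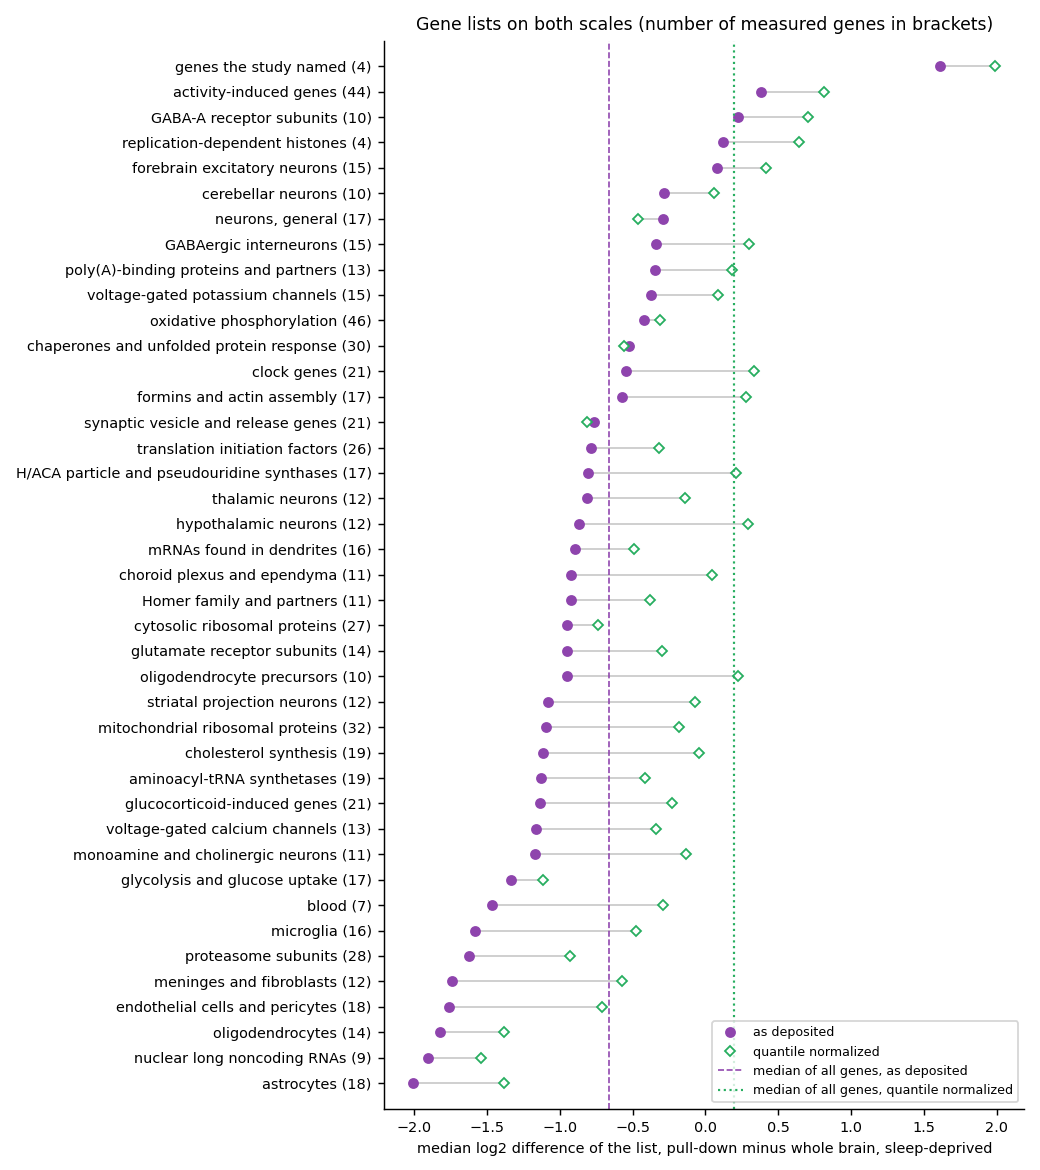
Median log2 difference, pull-down minus whole brain (horizontal axis), of each gene list (vertical axis, number of measured genes in brackets). Filled circles are as deposited and open diamonds quantile normalized, and vertical lines mark the medians of all 18193 genes, -0.66 and 0.20. Activity-induced genes (0.38 and 0.81) lie right of both lines, and astrocytes (-2.01 and -1.38) lie left.

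The 1327 probe sets that turned between the scales had small differences. The largest were Erbb2 (1424919_at), a growth factor receptor (-0.62 and 0.63), Rbm38 (1421265_a_at) (-0.63 and 0.63) and Rbm41 (1456027_at) (-0.61 and 0.61), both RNA-binding, Rrp7a of ribosome assembly (-0.62 and 0.63) and the calcium-regulated factor Nfatc2 (-0.62 and 0.61). Of these 5 genes, all lost their deposited call without at least 1 array.

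Probe sets of a gene often disagreed. Of 178 genes named here that passed on both scales, 37 (20.8%), Homer1 among them, had another probe set that passed in the opposite direction on both. Of the 85 named as higher, 29 had one that was lower on both scales and 53 one that was lower on at least 1 scale. Among 9010 genes with at least 2, 939 (10.4%) had probe sets called in both directions on both scales, and so had 667 (8.44%) of 7906 genes counted over the kinds _at and _a_at alone. Mbp differed by -5.24 as deposited by 1419646_a_at and by -1.27 by 1433532_a_at. Ptgds differed by -5.35 and -2.41 by its 2 probe sets. Dkc1, a pseudouridine synthase, differed by 3.55 by 1441788_s_at and by -0.91 by 1438015_at, where only the deposited difference passed (adjusted p = 0.0223 and 0.835). That call was lost without pull-down 6 or whole brain 21 (adjusted p up to 0.066), and centring turned the difference to 0.27. These examples were chosen after their values were seen.

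Shares of calls differed with features of the probe sets and genes. Of probe sets of the kind _x_at, 23.9% were higher on both scales and 9.26% lower, against 4.67% and 20.4% of the kind _at. With genes in 4 equal groups by promoter GC content, the share of genes higher on both scales was 5.02%, 7.09%, 9.60% and 12.5% from lowest to highest. The share lower rose with it as well, from 9.33% to 14.04%, 17.4% and 18.3%. By genomic span the shares higher were 5.46%, 6.37%, 9.07% and 12.9%, and those lower 11.4%, 14.7%, 15.0% and 17.1%. By whole-brain level it went from 1.25% to 18.7% and the share lower from 0.725% to 36.1%, so that both kinds of call were most frequent among bright probe sets. Both directions thus grew together with GC content, span and level. The whole-brain level is itself part of the difference. A gene dim in whole brain has little room to be lower, so the share lower by level was largely set in advance. These shares are descriptions, with no test, and the features are related to each other.

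The same comparison in undisturbed mice uses other arrays throughout (6 pull-down and 4 whole brain). There 2487 probe sets (5.52%) were higher and 8379 (18.6%) lower on both scales. Of those higher after sleep deprivation, 2339 were also higher there, which is 78.1% of the first list and 94.0% of the second. Of those lower, 7229 were also lower (78.1% and 86.3%), and 0 were called in opposite directions. The difference between the comparisons was tested by an interaction contrast over 20 arrays (limma). It called 0 of 45037 probe sets (0%) on either scale. At an unadjusted p under 0.05 were 152 (0.34%) as deposited, 662 (1.47%) after quantile normalization and 414 (0.92%) after subtracting array medians. With no difference anywhere a share of 0.05 would be awaited, so the contrast was conservative here. Its 0 calls do not show that the comparisons are alike. A call in 1 comparison and not in the other is thus not shown to differ.

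The values of 3 activity-induced genes are given for this contrast, chosen after they were seen. Ptgs2 (1417262_at) differed between the extracts by 1.63 after sleep deprivation and by 0.82 undisturbed, as deposited. The difference of these was 0.81 ± 0.37 (SE, unadjusted p = 0.0371, adjusted p = 1.00). For Egr2 (1427682_a_at) the values were 2.64 and 1.73, and for Dusp4 0.43 and -0.56, with differences of 0.91 ± 0.54 (SE, unadjusted p = 0.105, adjusted p = 1.00) and 0.99 ± 0.33 (SE, unadjusted p = 0.00666, adjusted p = 1.00). None passed after adjustment. The glial and blood genes with the largest differences kept them in undisturbed mice, for example Mbp 1419646_a_at (-5.48), Mlc1 (-3.84) and Hbb-b2 (-5.34). So did Fmn1 (4.80) and Pus7l (3.63) at the high end.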

How the data were processed

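RNA of 24 mouse brain samples was measured on short-oligonucleotide arrays. The authors deposited log2 intensities per probe set, made with RMA in the affy package, per the submitters' processing notes. No version is named, nor which arrays were normalized together. These log2 values were used as deposited and after quantile normalization over the 10 arrays. Of 45101 probe sets, 64 controls were left out. The 2016 annotation gave 1 symbol for 34945 of the rest, several for 932 and none for 9160. Groups came from the titles.

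Differences were fitted with limma 3.58.1 in R 4.3.3 (lmFit and eBayes), two-sided, with Benjamini-Hochberg adjustment over 45037 probe sets and a threshold of 0.05. The fit was tested on simulated data. P-values measure the spread between these samples, and the number of arrays limits the precision. No 2 arrays were identical. The members and the 41 lists were chosen with earlier results of these data known. A list counts 1 probe set per gene, the brightest of its _at and _a_at kinds. Named were the 15 genes per direction with the largest smaller difference on both scales, the extremes of each list, genes turned between scales or ends of the arrays, and all probe sets of 8 genes. The activity-induced genes that passed on both scales are all given, and other named members were chosen after their values were seen. Alternatives were centring, scaling, other normalization, dim probe sets, array weights, a larger difference and leaving out arrays.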

Additional observations from a re-analysis of the deposited data

Results flagged for a closer look

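Single arrays that lay far from the rest of their group, by Dixon's test at 95%, were found in 14 of 84 groups of values examined, where chance gives about 1 in 20 for independent groups. In 11 of the 14 the array was pull-down 1, on the side of whole brain or beyond it for all but Arc, where it lay farther from whole brain than the others. Its correlation with whole brain was 0.930 (others 0.851 to 0.874). Its mean astrocyte level was 8.14 (others 7.02 to 7.23) and its mean oligodendrocyte level 7.61 (others 6.80 to 7.08). For single probe sets, pull-down 1 read 8.27 (others 5.80 to 6.59) for Homer1 1425710_a_at, 6.88 (others 4.41 to 5.22) for Per1, 9.17 (others 7.45 to 7.83) for Arc and 6.90 (others 4.84 to 5.35) for Ptgds 1423860_at. It read 8.55 (others 6.19 to 6.48) for Mbp 1419646_a_at, 11.37 (others 7.55 to 8.88) for Malat1 1427285_s_at, 8.59 (others 5.24 to 5.77) for Slc17a7 and 10.55 (others 8.35 to 8.72) for Pvalb. This array also had the most 18S signal and its part in the results was measured by leaving it out: without it 3138 probe sets were higher and 10348 lower on both scales, against 2993 and 9262 with it.

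In whole brain, array 21 read 5.50 (others 5.93 to 6.01) for Ptgs2 1417262_at and 8.31 (others 7.62 to 7.71) for Grik3, and array 18 read 8.42 (others 8.71 to 8.75) for Gfap.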

How the results depend on the processing

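As deposited, the 3082 higher and 28354 lower probe sets became 520 and 5981 when tested against a difference of 1 log2 unit, 10256 and 9407 with quantile normalization over 10 arrays, 10325 and 9416 over all 24, 18559 and 5741 after centring on the median and 17307 and 5757 after scaling to equal median and spread. The filter on dim probe sets left 13792 lower. Tested against 1 unit, quantile-normalized counts were 1398 and 1608, and 481 and 1563 passed on both scales. Without 1 array in turn, counts ran from 2621 to 3217 higher and 23803 to 30283 lower as deposited, 8255 to 11742 and 7950 to 10471 after quantile normalization, and 2546 to 3138 and 7795 to 10348 on both. At the 90th percentile, 0 and 2 probe sets changed ends of the array. With medians over probe sets, 4 lists lay above all genes on both scales in place of 8. Array weights, 1 fit of all 24 arrays, a trended robust fit, the kinds _at and _a_at alone and leaving out pull-down 1 and 3 kept these counts within 1.5 times, but not the 1327 probe sets that turned between the scales, which became 4322 with array weights and 2078 without pull-down 1 and 3. The interaction called 0 probe sets in each of its alternatives, with 97 to 388 at an unadjusted p under 0.05 when 1 array was left out. No paired analysis was possible because the titles of pull-down and whole brain share no replicate number. Of 416 tested differences of single probe sets (2 scales each), 25 lost the threshold without 1 array. Among those that passed with or without the array, 0 changed sign.

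Some deposited differences changed sign under another scaling and passed before or after it. Changes of sign that passed neither before nor after are not listed. With quantile normalization over 10 arrays they were Egr4 0.57, Erbb2 0.63, Nfatc2 0.61, Nptx2 1449960_at 0.17, Nr4a1 0.69, Rbm38 0.63, Rbm41 0.61, Rrp7a 0.63, Sik1 0.59. Over all 24 arrays they were Egr4 0.56, Erbb2 0.60, Nfatc2 0.58, Nptx2 1449960_at 0.18, Nr4a1 0.65, Rbm38 0.60, Rbm41 0.59, Rrp7a 0.61, Sik1 0.56. After centring they were Dkc1 1438015_at 0.27, Egr4 0.62, Erbb2 0.56, Gabrb1 0.52, Glul 1426236_a_at 1.03, Jph3 1418161_at 0.0117, Malat1 1418188_a_at 0.62, Nfatc2 0.55, Nptx2 1449960_at 0.59, Rbm38 0.55, Rbm41 0.57, Rrp7a 0.56, Sik1 0.62. After scaling to equal median and spread they were Actb 0.41, Cacna1e 0.58, Dkc1 1438015_at 0.47, Dusp5 0.0336, Egr4 0.60, Erbb2 0.66, Gabrb1 1.03, Glul 1426236_a_at 2.17, Homer1 1425671_at 1.48, Jph3 1418161_at 0.15, Malat1 1418188_a_at 1.80, Mbp 1433532_a_at 0.90, Nfatc2 0.66, Nptx2 1449960_at 0.34, Nr4a1 0.83, Penk 0.0872, Rbm38 0.65, Rbm41 0.65, Rrp7a 0.66, Sik1 0.78, Slc32a1 0.37. The cause was not tested beyond the scaling itself.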

Other observations

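Lists not described above also held members at both ends. Beside their counts, 8.71% of all genes were higher and 57.2% lower as deposited, and 29.4% and 14.9% after quantile normalization. Clock genes gave 3 higher and 10 lower of 21 as deposited, and 9 higher and 7 lower after quantile normalization. Npas2, the forebrain partner of Bmal1 (1.71 and 2.37), and the nuclear receptor Rorb (1.28 and 2.08) were higher, and Cry2, a repressor of the clock (-2.10 and -1.64), was lower beside Per1 and Rora. Glucocorticoid-induced genes gave 3 higher and 15 lower of 21 as deposited, and 3 higher and 7 lower after quantile normalization (5 higher without pull-down 1 and 4 lower without whole brain 19, both after quantile normalization). Dusp1 and Nfkbia (0.81 and 0.77), the inhibitor of NF-kB, were higher, and the factor Zbtb16 (-2.65 and -2.03) and the metallothionein Mt2 (-1.81 and -1.65) lower. Chaperones gave 4 higher and 16 lower of 30 as deposited, and 6 higher and 14 lower after quantile normalization. The inducible Hspa1a (2.13 and 3.02) was higher beside Hspa1b, while the chaperones of the endoplasmic reticulum Calr (-2.18 and -1.94) and Pdia3 (-1.98 and -1.64) were lower. Zbtb16 (1419874_x_at, 2.15 and 2.59) was higher on both scales by another probe set.

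Cholesterol synthesis gave 3 higher and 15 lower of 19 as deposited, and 3 higher and 5 lower after quantile normalization (3 lower after quantile normalization without pull-down 6, 10 or 12 or whole brain 18, 20 or 21). Idi1 (1.56 and 1.54), Hmgcs1 (1.00 and 0.65) and the sterol sensor Insig1 (0.80 and 0.68) were higher and Lss (-1.85 and -1.10) was lower. Pseudouridine synthases and the H/ACA particle gave 4 higher and 10 lower of 17 as deposited, and 7 higher and 1 lower after quantile normalization (2 lower after quantile normalization without pull-down 1). Besides Pus7l, the assembly factor Naf1 (1.96 and 2.80) and the core protein Nop10 (2.08 and 1.97) were higher. Formins and actin assembly gave 6 higher and 8 lower of 17 as deposited (35.3% and 47.1%). After quantile normalization 7 were higher and 2 lower (41.2% and 11.8%). This list holds Fmn1 and the pseudouridine list Pus7l, both already named as highest. Both lists were chosen with earlier results known, so their counts are no separate support. Fhod3 (1.16 and 2.18) and Wasl, N-WASP (1.85 and 1.50), were higher beside Fmn1, and the formin Diaph2 was lower (-1.98 and -1.31). Poly(A)-binding proteins and partners gave 3 higher and 5 lower of 13 as deposited, and 4 higher and 2 lower after quantile normalization (1 lower after quantile normalization without whole brain 18), and replication-dependent histones 2 higher and 2 lower of 4 as deposited, and 2 higher and 1 lower after quantile normalization (1 lower as deposited without any one of 8 arrays). Hmgcs1 (1433446_at, -1.80 and -1.27) and Wasl (1426777_a_at, -1.86 and -0.99) were lower on both scales by other probe sets. Lss (1426913_at, 1.12 and 2.16) and Diaph2 (1442003_at, 1.06 and 2.05) were higher on both scales by other probe sets.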
